A study of Mus musculus with 4 samples.

Results

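Transcripts that RefSeq lists as noncoding were compared between 2 lines of mouse ovarian cancer cells. The transcripts were those whose array probe carries a RefSeq accession of the noncoding class (prefix NR_), with the probes for H19 and Meg3 left out. This gave 2472 of the 56605 probes on the array, or 4.37%, from 2339 accessions. A symbol was found in RefSeq for 2402 of these probes, which stood for 2209 genes, and 70 probes had none.

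ID8G cells are ID8 cells, a mouse ovarian surface epithelial line that transformed spontaneously, given GFP with a retrovirus and sorted for it. GO2 cells came from ID8G cells injected into the peritoneal cavity of female C57BL/6J mice. Omental tumors were taken, CD45-GFP+ cells were sorted and cultured, and the cycle was repeated once more before the GO2 line was kept. The question was which transcripts differ between the parental line and the line that disseminates more. Both lines carried GFP, and each was measured on 2 arrays from total RNA. The paper gives DMEM with FBS, insulin, transferrin and sodium selenite for ID8 cells and names no separate medium for ID8G or GO2. GO2 is 1 selected line, so growth in mice, sorting, added passages and selection cannot be told apart. The labels do not say that the 2 arrays of a line came from separate cultures, so p-values measure the spread between these arrays, which may be technical.

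Noncoding RNAs act without being translated. Long noncoding RNAs include hosts, whose transcripts hold the sequence of microRNAs or small nucleolar RNAs (snoRNAs) that are cut out of them, and antisense RNAs, which are transcribed from the strand opposite a coding gene and can share its promoter region. Structural RNAs such as those of RNase P, the signal recognition particle or the spliceosome work inside ribonucleoprotein particles. RNase P trims the 5′ ends of transfer RNAs.

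A level is given here as the log2 signal minus the 75th percentile of the array, so that 0 is the signal of a probe at that percentile. The percentile lay between 627 and 675 intensity units on the 4 arrays, 27502 to 28841 probes were well above background, and 0 spots were saturated. All arrays were on 1 slide and came from 1 scan. Of 8 epithelial and mesothelial markers, 7 were well above background in both lines, and Krt7 was above it on no array. Their summed linear level was 655 to 662 in ID8G and 373 to 377 in GO2, and Krt18, Krt19 and Krt8 make up most of it. Krt19 was called lower (-1.65) and Upk3b was called higher (1.08). Krt8, Krt18 and Msln differed by -0.55, -0.81 and -0.82 without a call, and Wt1 and Lrrn4 by -0.10 and -0.04. Ptprc, Adgre1, Lyz2, Tyrobp and C1qa, 5 of 10 leukocyte and macrophage markers, were well above background on no array. The other 5, Cd68, Csf1r, Itgam, Cd14 and Fcer1g, were above it on every array, with Itgam between 4.13 and 4.39, and none was called, the lowest difference being -0.69 for Cd14. Of 8 fibroblast markers, Pdgfra and Col3a1 were higher in GO2, by 3.70 and 4.20 on the log2 scale, and Pdgfrb, above background on no ID8G array, was at least 2.42-fold higher, while Lum, Thy1, Postn and Fap were above background on no array. Dcn, also of this list, went from 6.07 and 6.01 in ID8G to 5.41 and 5.42 in GO2, a difference of -0.63 (limma adjusted p = 0.00309). It makes up most of the summed linear level of the list, which ranged from 66.0 to 68.8 in ID8G and from 64.5 to 66.9 in GO2. Whether these markers have a part in the differences below was not tested.

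The transcripts with the clearest link to a known product were hosts of microRNAs. Dnm3os lies opposite the dynamin gene Dnm3 and holds Mir199a-2 and Mir214 on its own strand. A230057D06Rik holds 7 precursors of the Mir344 family, and Mir22hg holds Mir22. The mature sequences are shown because they are what a change in the host could carry along, although the mature microRNAs themselves were not analysed here. They come from RefSeq (GRCm38.p6) and run 5′ to 3′, with the seed, bases 2 to 8, in capitals. From Dnm3os, on the plus strand, the arms of Mir199a-2 lie at chr1:162217844-162217866 and chr1:162217883-162217904, and those of Mir214 at chr1:162223397-162223418 and chr1:162223438-162223459.
mmu-miR-199a-5p: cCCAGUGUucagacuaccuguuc
mmu-miR-199a-3p: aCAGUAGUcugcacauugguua
mmu-miR-214-5p: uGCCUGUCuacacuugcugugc
mmu-miR-214-3p: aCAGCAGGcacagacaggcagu

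The 4 arms of Dnm3os have 4 different seeds. The 3p arms of the Mir344 precursors inside A230057D06Rik lie on the minus strand of chromosome 7, from miR-344d-3p at chr7:61726256-61726277 to miR-344-3p at chr7:61877782-61877804. The same mature miR-344h-3p comes from Mir344h-1 and Mir344h-2.
mmu-miR-344d-3p: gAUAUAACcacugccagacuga
mmu-miR-344e-3p: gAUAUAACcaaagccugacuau
mmu-miR-344h-3p: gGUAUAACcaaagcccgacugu
mmu-miR-344b-3p: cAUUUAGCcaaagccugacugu
mmu-miR-344c-3p: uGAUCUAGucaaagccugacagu
mmu-miR-344-3p: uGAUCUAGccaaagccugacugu

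Among these, miR-344d-3p and miR-344e-3p share 1 seed, and miR-344c-3p and miR-344-3p share another. The more abundant arm of Mir22 in most tissues, miR-22-3p, lies on the plus strand at chr11:75463772-75463793.
mmu-miR-22-3p: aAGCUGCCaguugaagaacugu

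RefSeq start sites were used for the promoter of Dnm3os, which is the transcript with the largest difference, and of 3 antisense RNAs that differed together with their coding gene. Each window covers 250 bases before the start site and 50 after it, on the plus strand (GRCm38.p6). The window of Dnm3os is chr1:162217373-162217672, and its capitals mark a CArG box, the element to which serum response factor binds.
Dnm3os: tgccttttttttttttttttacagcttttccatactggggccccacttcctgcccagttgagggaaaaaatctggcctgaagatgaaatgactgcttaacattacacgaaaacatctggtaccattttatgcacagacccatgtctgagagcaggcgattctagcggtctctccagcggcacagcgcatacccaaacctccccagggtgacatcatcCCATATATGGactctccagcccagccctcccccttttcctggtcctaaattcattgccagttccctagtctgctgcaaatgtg

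The box ends 23 bases before the start site. It was searched for on both strands after the sequence had been read, and a match is no evidence of binding. Of 32851 promoter windows of this length in the table, 535 (1.63%) hold 1. Among members called higher, 14 of 29 genes had a window and Dnm3os was the only 1 with the box. Among members called lower, 18 of 27 genes had a window and 0 held it. In the windows of Kcnmb4os2 (chr10:116472913-116473212), Lhx1os (chr11:84525410-84525709) and Tmem51os1 (chr4:142084048-142084347) the capitals mark the first 50 transcribed bases.
Kcnmb4os2: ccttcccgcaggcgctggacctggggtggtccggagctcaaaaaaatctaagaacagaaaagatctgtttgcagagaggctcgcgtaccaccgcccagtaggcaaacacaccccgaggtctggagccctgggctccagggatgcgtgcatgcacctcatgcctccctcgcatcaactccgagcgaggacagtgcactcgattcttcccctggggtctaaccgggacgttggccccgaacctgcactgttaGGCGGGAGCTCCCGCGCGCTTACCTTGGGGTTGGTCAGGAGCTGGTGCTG
Lhx1os: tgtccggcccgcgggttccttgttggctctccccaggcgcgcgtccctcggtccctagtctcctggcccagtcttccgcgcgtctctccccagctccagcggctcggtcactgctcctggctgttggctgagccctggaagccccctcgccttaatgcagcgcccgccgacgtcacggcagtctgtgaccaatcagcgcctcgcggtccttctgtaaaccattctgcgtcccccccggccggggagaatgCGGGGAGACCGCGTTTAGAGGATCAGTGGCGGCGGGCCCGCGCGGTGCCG
Tmem51os1: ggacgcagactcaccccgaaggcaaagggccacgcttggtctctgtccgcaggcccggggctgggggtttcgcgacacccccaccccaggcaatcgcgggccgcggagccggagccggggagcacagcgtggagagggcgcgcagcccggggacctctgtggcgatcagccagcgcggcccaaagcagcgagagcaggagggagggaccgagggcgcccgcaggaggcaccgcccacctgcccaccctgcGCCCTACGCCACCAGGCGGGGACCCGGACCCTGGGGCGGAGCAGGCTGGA

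Fewer noncoding than coding probes gave a usable signal. Testing required 1 line or both to have the probe above background on each of its arrays, which held for 718 of 2472 noncoding probes (29.0%) and for 62.03% of probes with a coding RefSeq accession. No array measured another 1566 noncoding probes above background. Of the 718 tested probes, 31 were higher in GO2 (4.32%), against 4.5% of all 28368 probes tested. Lower in GO2 were 27 (3.76%), against 3.34% of all, which makes 58 in either direction (8.08%, against 7.84%). A call needed a Benjamini-Hochberg adjusted p below 0.05 in limma, over all 28368 probes, and a log2 difference of at least 1. These shares lie near those of the whole array, and the median difference was -0.04 for noncoding probes and -0.02 for all. The median absolute difference between the lines was 0.22, against 0.09 between the replicate arrays of either line. At an adjusted p below 0.05 and any size, 122 noncoding probes were higher (17%, against 17% of all) and 152 lower (21.2%, against 18.9%).

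Many calls rest on probes that 1 line did not measure. Of the 31 higher probes, 22 were above background on no ID8G array, 2 on 1 and 7 on both. Of the 27 lower probes, 10 were above background on no GO2 array, 1 on 1 and 16 on both. Of the 718 tested probes, 101 were above background on fewer than 4 arrays, and 35 of these were called. The matching share over all probes was not counted. These 101 passed the filter through 1 line alone, so the 35 are no result about noncoding probes. Above background on both GO2 arrays and no ID8G array were 1.25% of noncoding probes, against 1.39% of all. The other way round it was 0.809%, against 0.897%. In a fit restricted to probes well above background on all 4 arrays, 7 of 617 noncoding probes were higher (1.13%, against 2.56% of all probes in that fit) and 17 were lower (2.76%, against 2.33%). For a line with no array above background a fold is given as a bound. It sets the mean of the brighter line against, on each array of the dimmer line, whichever is higher of the dimmest signal that passed as above background and the probe's own. With 2 arrays against 2, an exact two-sided permutation test cannot go below 0.333, so every p given is from the limma fit over all probes, and the number of arrays limits the precision.

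**Figure D1:**
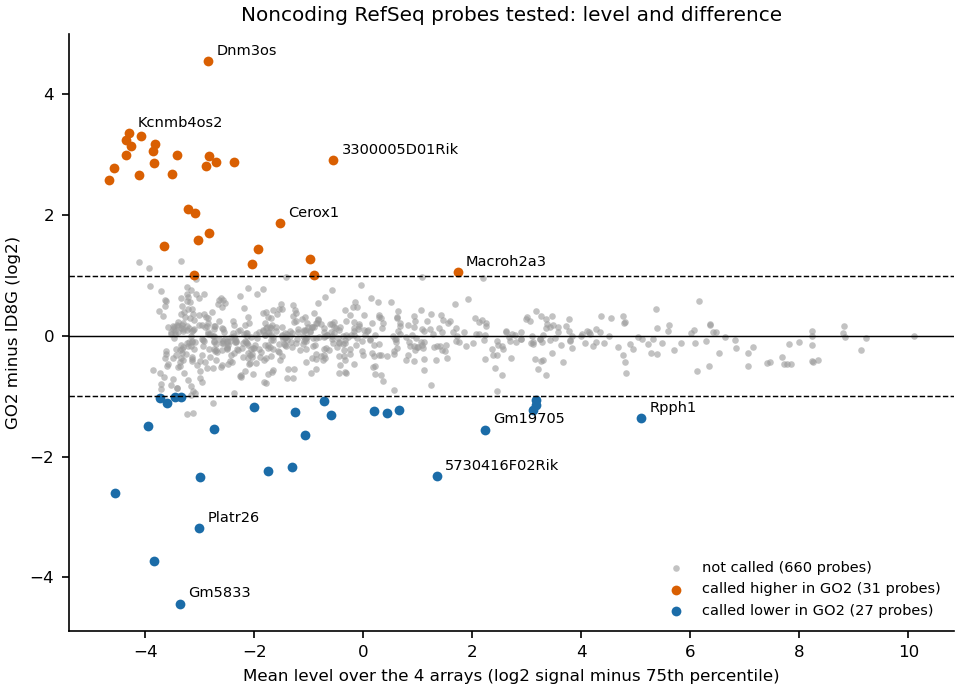
Difference between GO2 and ID8G (log2, vertical axis) against the mean level over the 4 arrays (log2 signal minus the 75th percentile, horizontal axis), with 1 point for each of the 718 tested noncoding probes. Most of the 31 called higher sit at low mean levels, while the 27 called lower reach up to Rpph1, and the dashed lines mark a log2 difference of 1.

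**Figure D2:**
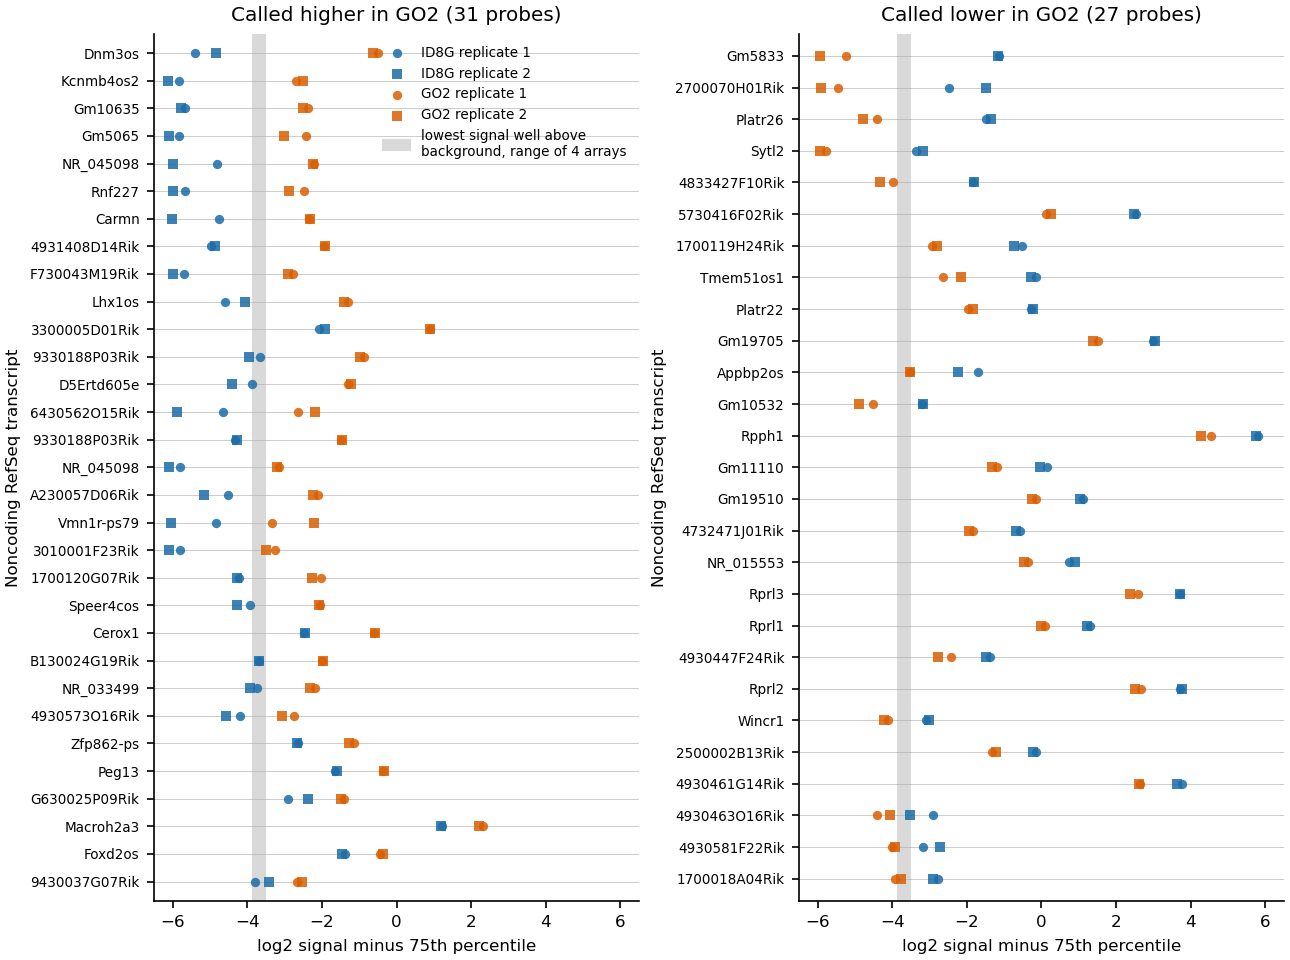
Level on each of the 4 arrays (log2 signal minus the 75th percentile) for the 31 probes called higher in GO2 and the 27 called lower, ordered by difference. Blue points are ID8G and orange points GO2, circles and squares are replicates 1 and 2, and the grey band spans the dimmest signals that passed as above background. In both panels the 2 lines do not overlap for any probe shown, which the call on these same 4 arrays selects for. Most blue points on the left lie at or below the band.

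Dnm3os was the noncoding transcript with the largest increase. ID8G had levels of -5.39 and -4.85, and GO2 had levels of -0.50 and -0.63. Both GO2 arrays lay far above both ID8G arrays, on neither of which the probe was above background. The difference was 4.56 ± 0.20 (SE, n = 2 arrays per line; limma adjusted p = 0.000633), and the measured levels allow a fold of at least 8.64. Both probes of the coding gene Dnm3, on the other strand, were above background on no array and were not tested. Knockouts of Dnm3os in mice have been linked to skeletal growth.

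Mir22hg, host of a microRNA found in most tissues, had levels of 0.58 and 0.60 in ID8G and 1.58 and 1.57 in GO2. The lines did not overlap, and the difference of 0.98 ± 0.05 (SE; limma adjusted p = 0.000859) was just under the log2 difference of 1 that a call needed. A230057D06Rik lay at -4.53 and -5.17 in ID8G and at -2.11 and -2.23 in GO2. It was above background on the GO2 arrays alone, with a difference of 2.68 ± 0.23 (SE; limma adjusted p = 0.00334) and a fold of at least 2.84. Dleu2, which overlaps Mir16-1 of the miR-15/16 cluster, differed by 0.98 (limma adjusted p = 0.0215) and was not called. Without ID8G replicate 2 its difference was 1.22 and passed the call.

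No other microRNA host found by RefSeq position was called. Hosts whose strand was not known, or whose precursors lie outside the RefSeq span, could not be found this way. Among 14 tested probes with a microRNA precursor in their span on the same strand, 2 were higher and 0 lower, against 4.5% and 3.34% of all probes. Mir100hg, which holds Mir100, Mir125b-1 and Mirlet7a-2, differed by -0.48 (limma adjusted p = 0.00879). Mirg, a host of imprinted microRNAs, differed by -0.48 (limma adjusted p = 0.0383). Mirc35hg, which holds the miR-183 cluster, differed by 0.10, and D7Ertd143e, which holds the miR-290 cluster of pluripotent cells, by -0.32, with limma adjusted p of 0.334 and 0.111.

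Antisense RNAs were compared with the coding gene of the same stem. A tested antisense probe was found for 40 genes, and 34 of them had a tested coding partner. Both were called in 4 pairs, always in the same direction, the antisense RNA alone in 2, the coding gene alone in 2 and neither in 26. The sign was shared in 19 of 34 pairs. Across the 34 pairs, which share the same 4 arrays, Pearson's r was 0.73 and Spearman's rho 0.49, given as a description. The pair of Kcnmb4os2 and Kcnmb4 (3.36 and 6.85) lies farthest out, and ID8G was above background on no array for either gene. Neither coefficient was computed without this pair. Of the 42 antisense probes tested, 5 were higher and 2 lower, against 4.5% and 3.34% of all probes, with Dnm3os among the 5.

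Kcnmb4os2 had levels of -5.84 and -6.12 in ID8G and -2.71 and -2.52 in GO2. It was above background on both GO2 arrays and on no ID8G array, a difference of 3.36 ± 0.13 (SE; limma adjusted p = 0.000481) and at least 2.09-fold. Kcnmb4, the beta subunit of a calcium-activated potassium channel, moved in the same direction, from -5.84 and -6.12 to 0.85 and 0.89. This is at least 23.4-fold (6.85 ± 0.11; limma adjusted p = 0.000182), and both probes of Kcnmb4 were higher. In RefSeq, Kcnmb4os2 starts 360 bases from the start site of Kcnmb4, inside the transcribed side of that gene.

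Lhx1os had levels of -4.59 and -4.06 in ID8G and -1.29 and -1.41 in GO2. ID8G was above background on no array, so the difference of 2.98 ± 0.20 (SE; limma adjusted p = 0.00163) stands as at least 5.03-fold. Lhx1, a homeobox factor of the developing urogenital tract, differed by 1.91 ± 0.24 (limma adjusted p = 0.00812) and was at least 3.21-fold higher in GO2. The 2 genes start 126 bases apart and are transcribed away from each other.

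Foxd2os lay at -1.37 and -1.46 in ID8G and at -0.44 and -0.38 in GO2, above background on every array. The lines did not overlap, with a difference of 1.01 ± 0.06 (SE; limma adjusted p = 0.00137), close to the threshold of the call. It no longer passed at 0.98 after median centering, 0.995 after quantile normalization, 0.82 with normexp background correction and 0.80 when scaled to the spike-in transcripts. Without GO2 replicate 2 or without ID8G replicate 2 it was 0.97 and 0.96. Foxd2, a forkhead factor, differed by 1.48 ± 0.06 (limma adjusted p = 0.000550).

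Tmem51os1 had the largest decrease among RNAs antisense by name. It fell from -0.16 and -0.28 in ID8G to -2.63 and -2.17 in GO2, a difference of -2.18 ± 0.18 (SE; limma adjusted p = 0.00273). Tmem51, a transmembrane protein, had 2.85 and 2.84 in ID8G and 1.39 and 1.49 in GO2, a difference of -1.41 (limma adjusted p = 0.000581). All 4 arrays were above background for both, and in both the GO2 arrays were the low ones. Their RefSeq start sites lie 6 bases apart on opposite strands.

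The remaining pairs split. Appbp2os was lower by -1.55 ± 0.20 (SE; limma adjusted p = 0.00857), with 1 of 2 GO2 arrays above background, while Appbp2 differed by -0.04, although the genes start 46 bases apart. The call of Appbp2os was lost with normexp background correction (-0.73) and without a filter on dim probes. Speer4cos was at least 3.05-fold higher and Speer4c differed by -0.01. Conversely, Epb41l4a was higher by 1.60 on its leading probe, with 4 of 4 probes called, while Epb41l4aos, also a snoRNA host, differed by -0.10. Arhgap27 was lower by -1.26, with 1 of its 2 tested probes called, and Arhgap27os3 differed by -0.52. Wt1os, antisense to the mesothelial factor Wt1 by name only, differed by -0.55 (limma adjusted p = 0.0465).

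**Figure D3:**
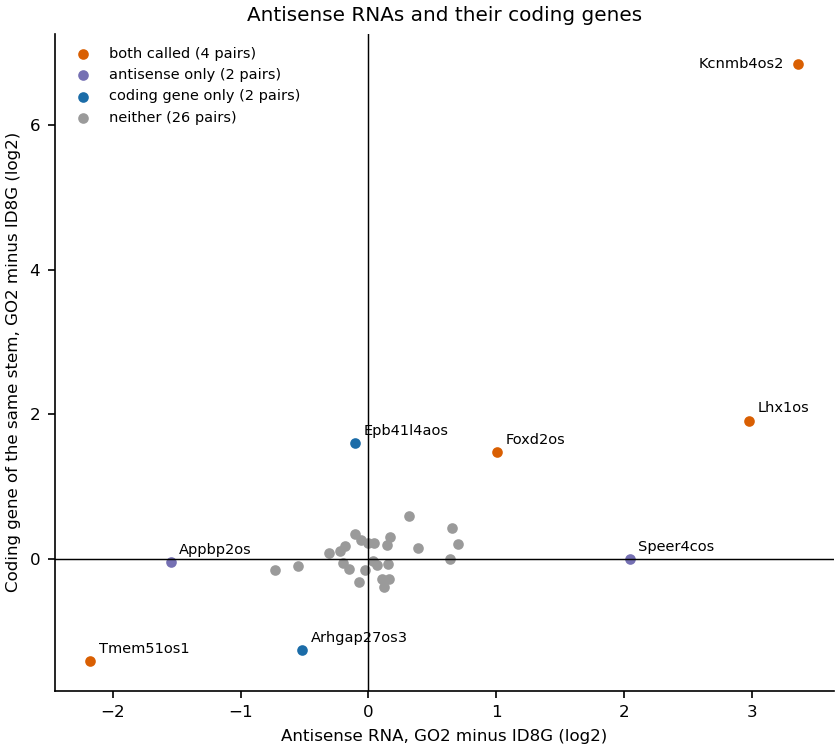
Difference between GO2 and ID8G (log2) of 34 antisense RNAs (horizontal axis) and of the coding gene of the same stem (vertical axis, leading probe), 1 point per pair, colored by which of the 2 was called. The 4 pairs called on both sides lie in the upper right or lower left, Appbp2os and Speer4cos lie along the horizontal axis, and the 26 pairs with neither called sit near the origin.

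Called transcripts without an antisense name were also set beside coding genes at the same locus, by RefSeq positions. These loci were looked up only for called members or microRNA hosts. 1700119H24Rik fell from -0.52 and -0.74 in ID8G to -2.93 and -2.80 in GO2, a difference of -2.23 ± 0.10 (SE; limma adjusted p = 0.000703). It overlaps Mylk, the myosin light chain kinase, on the opposite strand, and Mylk was lower by -1.91 with 3 of 3 probes called. Cerox1, a long noncoding RNA known to act on mitochondrial complex I, had -2.48 and -2.44 in ID8G and -0.60 and -0.59 in GO2. Its difference was 1.87 ± 0.05 (SE; limma adjusted p = 0.000289), and Sox8, which starts 125 bases away in the opposite direction, was at least 1.55-fold higher. F730043M19Rik was at least 1.77-fold higher, beside Atxn7l1, which starts 100 bases away and was higher by 1.499 with 4 of 4 probes called.

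Other loci gave the following values, with no test of the difference between the noncoding transcript and its neighbor. B130024G19Rik, opposite the nuclear receptor gene Nr2f2, was higher by 1.71 ± 0.05 (SE; limma adjusted p = 0.000305), with 1 of 2 ID8G arrays above background, and Nr2f2 differed by 0.41. 6430562O15Rik was higher by 2.86 and at least 2.41-fold, beside Mrps27 of the mitochondrial ribosome at -0.10. The call of 6430562O15Rik was lost without GO2 replicate 1 (3.09), without GO2 replicate 2 (2.64) and without a filter on dim probes. 2500002B13Rik was lower by -1.08, and Sap30, a corepressor subunit that starts 103 bases away, differed by -0.57. 4732471J01Rik was lower by -1.25 on 1 probe, its other probe was above background on no array, and Ceacam1 on the opposite strand was at least 2.04-fold lower. With normexp background correction the calls of B130024G19Rik (0.95), 2500002B13Rik (-0.96) and 4732471J01Rik (-0.91) were lost. G630025P09Rik was higher by 1.19, while Tmem102 on the opposite strand differed by 0.04. The call of G630025P09Rik was lost with normexp background correction (0.74), when scaled to the spike-in transcripts (0.98) and in other settings. 4930581F22Rik was lower by -1.01, close to the threshold, while St3gal4 and Dcps on the opposite strand differed by 0.06 and -0.001.

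Of the other long noncoding RNAs called, 3300005D01Rik had the largest increase among those above background on all 4 arrays. Its levels were -2.07 and -1.93 in ID8G and 0.91 and 0.91 in GO2, a difference of 2.91 ± 0.07 (SE; limma adjusted p = 0.000242). 9330188P03Rik was at least 6.72-fold higher by 1 probe and at least 4.57-fold by the other. D5Ertd605e was at least 5.31-fold and 4931408D14Rik at least 3.37-fold higher, each above background in GO2 alone. Peg13, an imprinted transcript inside the Trappc9 locus, rose from -1.66 and -1.58 to -0.36 and -0.34, a difference of 1.27 ± 0.06 (SE; limma adjusted p = 0.000637).

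Carmn, a transcript of smooth muscle and cardiac lineages, had -4.77 and -6.02 in ID8G and -2.34 and -2.33 in GO2. GO2 was at least 2.54-fold higher (3.06 ± 0.44, SE; limma adjusted p = 0.0114). The 2 ID8G arrays, both below background, lay far apart. Its call was lost without GO2 replicate 1 (3.07), without GO2 replicate 2 (3.06) and without a filter on dim probes.

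The largest decrease was that of Gm5833, from -1.13 and -1.16 in ID8G to -5.23 and -5.94 in GO2, where it was above background on no array. This is at least 6.34-fold (-4.44 ± 0.25, SE; limma adjusted p = 0.00112). 2 transcripts named for an association with pluripotent cells were lower. Platr26 was at least 5.23-fold lower, and Platr22 fell from -0.29 and -0.23 to -1.96 and -1.83, a difference of -1.64 (limma adjusted p = 0.000589). 4833427F10Rik and 2700070H01Rik were at least 3.97-fold and 3.57-fold lower, and the 2 ID8G arrays of 2700070H01Rik lay apart, at -2.47 and -1.48. Gm19705 was measured high on every array, at 2.98 and 3.03 in ID8G against 1.52 and 1.39 in GO2, a difference of -1.55 ± 0.07 (SE; limma adjusted p = 0.000680). Wincr1, a transcript named for its induction by WNT, was at least 1.70-fold lower, a call that normexp background correction ended (-0.40).

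All 4 RNase P RNA genes were lower in GO2. Rpph1, the RNA subunit itself, had levels of 5.82 and 5.75 in ID8G and 4.56 and 4.28 in GO2. Each GO2 array lay more than 1 unit below each ID8G array, and the difference was -1.36 ± 0.11 (SE; 95% interval -1.67 to -1.06; limma adjusted p = 0.00276). The related genes Rprl3, Rprl1 and Rprl2 differed by -1.23, -1.23 and -1.15, with limma adjusted p of 0.00185, 0.00105 and 0.00166. RefSeq files all 4 as RNase P RNA, and their sequences were not compared here. Since 1 RNA may give the signal of all 4 probes, they are not taken as 4 separate results. Whether the probes of these and other structural RNAs read the mature RNA or other forms of it was not tested. Parp2, the coding gene next to Rpph1, differed by -0.02 (limma adjusted p = 0.877).

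No other structural RNA was called among the 28 tested probes of that class, 0 being higher and 4 lower, against 4.5% and 3.34% of all probes. Rmrp, the RNA of the related RNase MRP, differed by -0.13 (95% interval -0.32 to 0.05). Rn7s1 of the signal recognition particle differed by -0.13, Rn7sk, which holds the elongation factor P-TEFb, by 0.23 and the telomerase RNA Terc by 0.13, with limma adjusted p of 0.253, 0.161 and 0.374. Vaultrc5, a vault RNA that RefSeq files with the long noncoding RNAs, differed by -0.70 (limma adjusted p = 0.0127). Of 19 small nucleolar and small nuclear RNAs tested, Rn7sk among them, none passed the call. At an adjusted p below 0.05 and any size in limma, 0 were higher and 4 lower, against 17% and 18.9% of all probes. Their median difference was -0.14, against -0.02 over all probes.

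**Figure D4:**
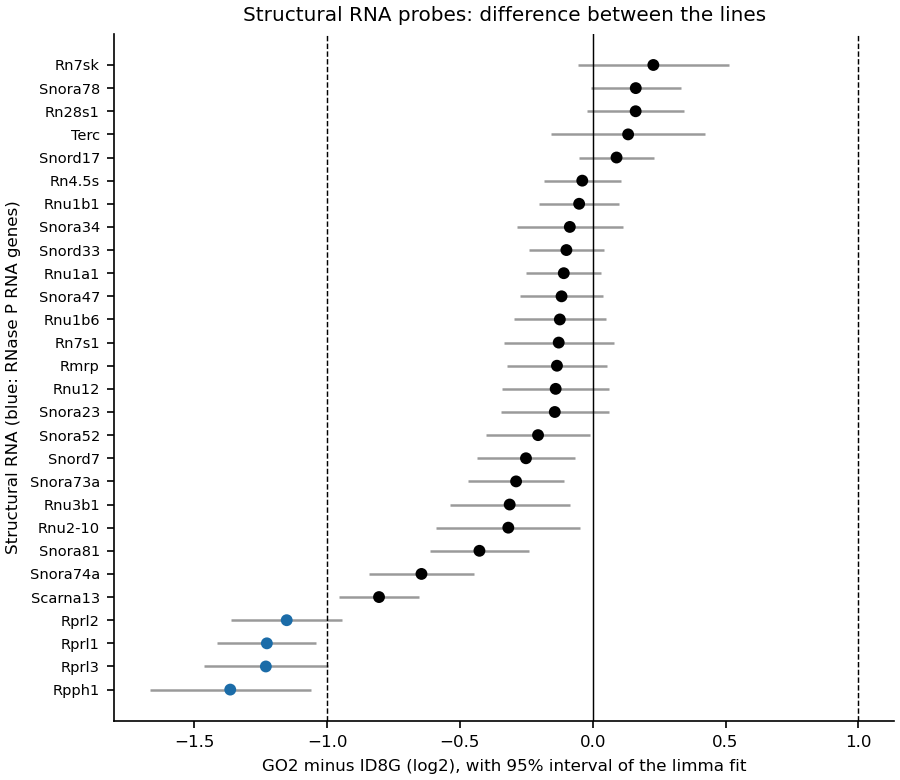
Difference between GO2 and ID8G (log2, horizontal axis) of the 28 structural RNA probes tested, with the 95% interval from the limma fit, ordered by size. The 4 RNase P genes, in blue, lie at or below -1.15, Scarna13 and Snora74a lie between them and the rest, and Rn7sk, at 0.23, is the highest.

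Of 18 tested probes for 17 host genes of snoRNAs, none was called in limma, 3 were higher and 3 lower at an adjusted p below 0.05 and any size, against 17% and 18.9% of all probes, and the differences ran from -0.36 for Snhg20 to 0.56 for Snhg10. Snhg1 differed by 0.03, with a 95% interval from -0.13 to 0.18, and Snhg5 by 0.04. Snhg12 differed by 0.42 (limma adjusted p = 0.00948).

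In 5 loci both a host and a small RNA inside its span were tested, and the difference between them was not. Whether the probe of a small RNA reads the mature RNA or a longer transcript that holds it was not tested either. Snhg10 had 0.23 and 0.22 in ID8G and 0.77 and 0.79 in GO2, so the GO2 arrays were the high ones. Scarna13, a small Cajal body RNA in the same locus, had 1.62 and 1.66 in ID8G and 0.86 and 0.80 in GO2, so they were the low ones. The differences were 0.56 and -0.80, with limma adjusted p of 0.00364 and 0.00178, neither large enough for a call, and Scarna13 passed it, at -1.01, when scaled to the spike-in transcripts. Snora74a differed by -0.64 (limma adjusted p = 0.00622) and its host Snhg4 by 0.04. Snora73a differed by -0.29 and Snhg3 by -0.01, Snord7 by -0.25 and AA465934 by -0.01, and Snora78 by 0.16 and Snhg9 by -0.30.

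Well-known long noncoding RNAs were mostly not called. Among 13 tested probes of a list named for growth and p53, 0 were called higher and 0 lower. At an adjusted p below 0.05 and any size in limma, 7 were higher and 3 lower, against 17% and 18.9% of all probes. The 13 probes stand for 7 genes, and Norad and Lncpint account for 6 of the 7 higher probes. Without ID8G replicate 2 the list held 1 call, Dleu2 (1.22). Norad, which binds Pumilio proteins, was represented by 4 probes with differences of 0.44, 0.44, 0.48 and 0.52. Lncpint, a p53 target, differed by 0.57 and 0.78 on its 2 probes. Bvht, counted in this list although its link to growth or p53 was not checked, differed by -0.55 (limma adjusted p = 0.00821). Tug1 differed by 0.06, and Pvt1, next to Myc, by -0.24 and -0.17.

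Of the nuclear transcripts, Firre differed by -0.64 (limma adjusted p = 0.00680) and Neat1, the scaffold of paraspeckles, by -0.50 and -0.40 on 2 probes. Xist, which silences an X chromosome, differed by -0.04, with a 95% interval from -0.20 to 0.12. The 4 tested probes of Kcnq1ot1, which silences an imprinted domain, ranged from -0.19 to -0.04, and Airn, which silences Igf2r, differed by -0.37. None of these was called. Of 6 noncoding probes of the Hox clusters, 0 were higher and 0 lower, with Hottip at -0.50 and Hoxd3os1 at 0.15.

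**Figure D5:**
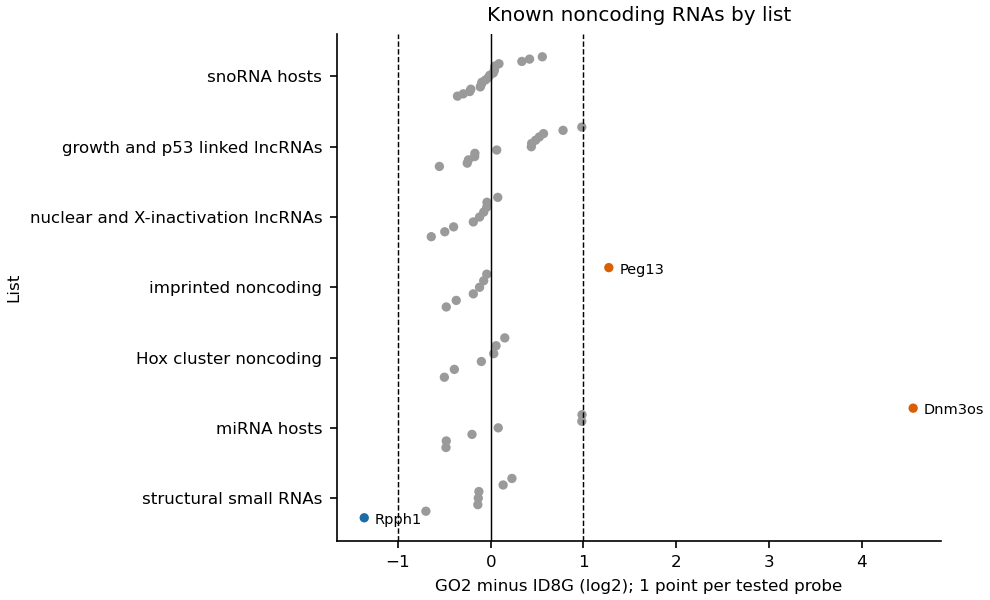
Difference between GO2 and ID8G (log2, horizontal axis) of the tested probes in 7 lists of known noncoding RNAs, 1 point per probe, with called probes colored and named. Outside Dnm3os, Peg13 and Rpph1 every probe lies within the dashed lines at a log2 difference of 1.

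Pseudogenes made up 127 of the tested probes, of which 5 were higher and 1 lower, against 4.5% and 3.34% of all probes. The 1 lower probe became 4 without ID8G replicate 2, 3 without a filter on dim probes and 3 when scaled to the spike-in transcripts. 5730416F02Rik was the one that fell, from 2.53 and 2.48 in ID8G to 0.13 and 0.25 in GO2, a difference of -2.32 ± 0.07 (SE; limma adjusted p = 0.000303), the largest decrease among noncoding probes above background on all 4 arrays. Zfp862-ps was higher by 1.44 and Macroh2a3, a relative of the macroH2A histones, by 1.05. The call of Macroh2a3 was lost without GO2 replicate 1 (0.995) and when scaled to the spike-in transcripts (0.84), and that of Zfp862-ps with normexp background correction (0.95). Vmn1r-ps79, of a pheromone receptor family, was at least 1.86-fold higher, and lost its call without GO2 replicate 2 (2.10), without ID8G replicate 2 (2.05) or without a filter on dim probes. Gm5065 and Speer4cos were at least 1.93-fold and 3.05-fold higher. Such copies can share sequence with their parent genes, so the source of their signal is uncertain.

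Of 27 tested probes for noncoding transcripts of coding genes, 0 were higher and 1 lower, against 4.5% and 3.34% of all probes. Sytl2, a synaptotagmin-like gene of vesicle traffic, had -3.35 and -3.17 in ID8G and -5.78 and -5.94 in GO2 on this probe, at least 1.46-fold lower, and lost the call with normexp background correction (-0.69). Bmp1, a procollagen proteinase, differed by 0.85 (limma adjusted p = 0.00365). Slc8a1, the sodium-calcium exchanger, differed by 1.12 and missed the call with a limma adjusted p of 0.0503, and it passed without ID8G replicate 2 (1.52), after median centering (1.09), with an intensity trend and with the replicate block. The gene has coding transcripts too, and these probes may read both kinds.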

How the data were processed

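RNA of ID8G and GO2 cells was measured on 4 one-color Agilent arrays, 2 per line. The authors deposited spot intensity from the scanner (Feature Extraction 11.5.1.1), with background subtracted and no scaling across arrays. Their processed table, used as 1 alternative, gives log2 values, which the authors scaled to the 75th percentile and then centered probe by probe.

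Spots marked as outliers were left out, spots of a probe were averaged, and the 75th percentile of each array was subtracted from the log2 intensity. Probes that each array of 1 line or both placed above background (28368) entered a limma 3.58.1 fit (R 4.3.3) with line as the only term, which was tested on simulated data beforehand. Symbols, positions and sequences came from RefSeq tables for GRCm38.p6. The array was designed on mm9, so positions describe RefSeq genes, not probes. Strand was known for 1550 of 2209 genes (70.2%), so layouts are given for single genes and not counted over the set.

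Members and lists were chosen with earlier results of these data known. Named are the largest called changes among probes above background on all 4 arrays, the largest bounds, the brightest and most different members of each list or class, and well-known long noncoding RNAs. Other called members and the small RNAs inside hosts were named after their values were seen. Figures were drawn with matplotlib 3.10.9.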

Additional observations from a re-analysis of the deposited data

How the results depend on the processing

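The 31 higher and 27 lower probes were recounted under each alternative. Leaving out 1 array gave 26 to 34 higher and 24 to 32 lower, and 11 of the 58 called probes lost the call in at least 1 of these fits. The numbers 1 and 2 of the arrays did not pair them (correlation of deviations 0.03), and the replicate block gave 31 and 27. Without a filter on dim probes there were 35 higher and 49 lower. Normexp background correction, run on each spot's median signal, gave 23 higher and 17 lower, and 18 of the 58 calls were lost. Scaled to the spike-in transcripts, 27 were higher and 42 lower. With probes above background on all 4 arrays there were 7 higher and 17 lower, and at adjusted p alone 122 and 152. The methods' t-test gave 22 and 19 at the unadjusted threshold and 0 and 0 after Benjamini-Hochberg. Scaling to the spike-ins, 7 transcripts that differed by 0.15 to 0.28, moved the median of all probes from -0.02 to -0.23, and the share of noncoding calls that were higher from 53.4% to 39.1%, beside 57.4% and 43.5% over all probes. It was 41.7% without the filter and 29.2% with probes above background on all 4 arrays, beside 54.4% and 52.4% over all probes. Of 1952 comparisons for 117 named or called probes, 1779 kept direction and side of the threshold, 138 lost the call, 35 gained it and 0 reversed. Of the 35 gains, 29 came from adjusted p alone, which drops the size threshold and can only add calls. Only 58 of the 117 were called in the main fit, and the others count as kept while they stay uncalled. The methods' t-test after Benjamini-Hochberg thus counts 59 as kept, although all 58 calls were lost. The fit with all 4 arrays above background held 80 of the 117, and calls of probes it removed are not in this tally. A slide or scan block was not run, since there was 1 slide and 1 scan. The cause of these shifts was not tested. Signal over background limits the tested set to 718 of 2472 probes.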

Other observations

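Some known noncoding RNAs could not be compared because their probes were dim. Both probes of Miat and of Fendrr, a transcript of lateral mesoderm, were above background on no array, as were those of Rian and Mir9-3hg. Ftx, a regulator of Xist, was above background on 1 ID8G and 1 GO2 array, with levels of -4.06 and -3.43 in ID8G and -3.63 and -4.02 in GO2, which overlap. Hoxa11os was above background on 1 ID8G array and no GO2 array, with levels of -5.17 and -3.52 in ID8G and -5.15 and -4.74 in GO2.

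Across the noncoding probes, 31 were above background on both GO2 arrays and no ID8G array (1.25%, against 1.39% of all probes), and 20 the other way round (0.809%, against 0.897% of all).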
